A study of Arabidopsis thaliana with 58 samples.

Results

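SDG2cd, the catalytic domain of the histone H3 lysine 4 methyltransferase SDG2, was brought to the *FWA* promoter of Arabidopsis *rdr6* plants in 2 ways, and the DNA methylation that remained there was compared. The libraries were chosen by their labels: 2 libraries of SDG2cd–ZF in *rdr6* (labelled 3 and 4), 2 libraries of SunTag–SDG2cd in *rdr6* (replicates 1 and 2) and, as the common baseline, 2 libraries of *rdr6* without a transgene (replicates 1 and 2), which makes 6 of the 47 bisulfite PCR sequencing (BS-PCR-seq) libraries of the series. In SDG2cd–ZF the domain is fused to an artificial zinc finger and expressed from the *UBQ10* promoter. In SunTag–SDG2cd a dCas9 that carries an array of GCN4 peptides is led to *FWA* by guide RNAs, and an antibody fragment that binds those peptides carries GFP and SDG2cd. All plants were of the Col-0 ecotype, and leaves were taken at 4 to 5 weeks. By their labels all 6 libraries carry the *rdr6* mutation, described by the study as the *rdr6-15* allele. The study describes no SDG2cd–ZF plants in *rdr6*, so the background of those 2 libraries rests on their labels alone. The labels give no generation, and they do not say whether the 2 libraries of a group came from independent transformants, so the spread between them may be technical in part. For BS-PCR-seq of SunTag–SDG2cd in *rdr6* the study describes T2 lines, but the labels do not tie these libraries to them. Libraries of either effector in *rdr6* without a guide or without a targeting domain were not analysed here. The study itself describes SunTag–SDG2cd without a guide in *rdr6* as a control.

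*FWA* encodes a homeodomain transcription factor that delays flowering when it is expressed in the vegetative plant. Tandem repeats at its start are normally methylated and the gene is silent, and in the *fwa* epiallele the same repeats have lost their methylation. CG methylation is copied at replication by MET1, CHG methylation is kept mainly by CMT3, and CHH methylation, where H is any base but G, depends on RNA-directed DNA methylation and CMT2. RDR6 is an RNA-dependent RNA polymerase that acts in the silencing of transgenes.

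The amplified regions lie on chromosome 4. Region 1 (chr4:13038143-13038272) lies upstream and ends 88 bp before the annotated start of *FWA* (AT4G25530, chr4:13038360-13042464, plus strand). Region 2 (chr4:13038356-13038499) covers exon 1 and the start of intron 1, and region 3 (chr4:13038568-13038695) covers the end of exon 2 and the start of intron 2. Both exons are 5′ UTR, since the first coding base is at chr4:13039312. The regions held 74 cytosines with at least 10 reads in every library, all on the minus strand: 14 CG, 3 CHG and 57 CHH. Region 1 held 3 of the CG cytosines and no CHG cytosine, region 2 held 5 CG and 2 CHG, and region 3 held 6 CG and 1 CHG. The level of a cytosine is the share of its reads that kept C after bisulfite treatment, in percent, and the level of a library is the unweighted mean over the cytosines of a context.

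The sequences on which the results turn are short. The end of region 1 held all 3 of its CG cytosines and the 6 CHH cytosines that kept most of the non-CG methylation, and is given on the minus strand, TAIR10.1, with the 9 measured cytosines in capitals.

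region 1 end, chr4:13038233-13038272: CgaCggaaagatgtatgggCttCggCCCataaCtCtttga

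Regions 2 and 3 cover the 2 copies of a repeat. With an offset of 211 bp, 107 of the 144 bases of region 2 matched the downstream copy (74.3%), and 4 CG cytosines of region 2 have a partner at the same place in region 3. Their surroundings are shown in windows of 25 bases on the minus strand, with the measured CG in capitals, so that each cytosine can be read beside its partner in the other copy.

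site 13038364, region 2: aaaaccctagagCGgcgctcgtatg
site 13038575, region 3: aaaaccgtaaagCGgtgctcgtatg
site 13038385, region 2: ttggaccaatggCGaaaagcaaaaa
site 13038596, region 3: ttcgaccaatgtCGaaaagcaaaaa
site 13038468, region 2: aaatcgataaatCGtaagaagaaaa
site 13038678, region 3: aaatcgataaatCGtaagaagaaaa
site 13038476, region 2: tatcccacaaatCGataaatcgtaa
site 13038686, region 3: tatcctacaaatCGataaatcgtaa

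The first pair was identical at 22 of the 25 bases, the pair 13038385 and 13038596 at 23, the pair 13038468 and 13038678 at all 25, and the pair 13038476 and 13038686 at 24.

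In the 6 libraries the median depth was 20857 to 49381 reads per cytosine and no cytosine had fewer than 9975 reads. At the 14 CG cytosines the widest 95% Wilson interval spanned 0.689 percentage points in the 4 libraries with an effector and 1.36 points in *rdr6*. These intervals cover counting error only, because many reads can come from 1 molecule. At 12 of the 14 CG cytosines the intervals of the 2 SDG2cd–ZF libraries were apart, so these libraries differed by more than read counting error. As a floor, the 3 libraries of unmethylated *fwa* averaged 0.131% ± 0.0842 in CG, 0.0910% ± 0.0139 in CHG and 0.123% ± 0.0115 in CHH (SD, n = 3). The 1 library labelled *fwa rdr6* stood above this floor, at 5.62% in CG, 2.06% in CHG and 1.51% in CHH, and above all 4 effector libraries, so the *fwa* libraries serve as the floor below. A library of SunTag–SDG2cd in wild type, replicate 1, also stood apart. At 7 CG cytosines of an amplicon in *MSH3* it read 0.179%, against 84.0% in replicate 2 and 0.061% to 0.355% in the *fwa* libraries, so its values go against its label and results that rest on it are given with and without it. At the same cytosines the library labelled *fwa rdr6* read 80.9%, unlike the *fwa* libraries, so its label is in doubt as well.

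The question of the main comparison was how much methylation each way of targeting left behind. Both effectors left a few percent of CG methylation at *FWA*, against nearly full methylation in *rdr6*. CG methylation was 3.42% and 4.22% in the SDG2cd–ZF libraries, 2.08% and 3.37% in the SunTag–SDG2cd libraries, and 85.1% and 85.8% in *rdr6*. The means were 3.82% ± 0.563, 2.72% ± 0.909 and 85.4% ± 0.530 (SD, n = 2 each). SDG2cd–ZF kept 4.47% of the *rdr6* CG level and SunTag–SDG2cd kept 3.19%. Against *rdr6*, CG methylation fell by 81.6 percentage points with SDG2cd–ZF and fell by 82.7 points with SunTag–SDG2cd, many times the spread within any of the 3 groups.

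Non-CG methylation fell as well. CHG methylation was 0.146% and 0.126% with SDG2cd–ZF, 0.192% and 0.336% with SunTag–SDG2cd, and 13.6% and 15.0% in *rdr6*. CHH methylation was 0.413% and 0.535% with SDG2cd–ZF, 0.414% and 0.618% with SunTag–SDG2cd, and 5.05% and 4.38% in *rdr6*. As a share of the *rdr6* level, 0.951% of CHG methylation remained with SDG2cd–ZF and 1.85% with SunTag–SDG2cd (0.317% with SDG2cd–ZF and 1.22% with SunTag–SDG2cd once the *fwa* level is subtracted), while 10.05% of CHH methylation remained with SDG2cd–ZF and 10.9% with SunTag–SDG2cd. In every context both libraries of each effector were below both *rdr6* libraries. With 2 libraries against 2, the smallest p that the two-sided exact permutation test allows is 0.33, so none of these differences could pass a threshold of 0.05 (adjusted p = 0.565 over 24 tests).

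Over single cytosines, both effectors were below *rdr6*, with no overlap between libraries, at 70 of the 74 cytosines (94.6% of those measured for either effector). These were all 14 CG cytosines, all 3 CHG cytosines and 53 of the 57 CHH cytosines. The other 4 cytosines were all CHH cytosines of region 1. Against the *fwa* floor, SDG2cd–ZF was higher without overlap at 33 of the 74 cytosines (44.6%), and SunTag–SDG2cd at 41 (55.4%). Below it without overlap were 2 cytosines with SDG2cd–ZF (2.7%) and 1 with SunTag–SDG2cd (1.35%), all CHH. Of the CG cytosines, 13 of 14 were above the floor with each effector, so CG methylation was low but not at the level of *fwa*. Of the CHH cytosines, 19 of 57 were above it with SDG2cd–ZF and 26 with SunTag–SDG2cd.

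The 2 effectors differed less in how much CG methylation remained than in where it remained. Averaged over the 14 CG cytosines, SDG2cd–ZF was 1.095 percentage points above SunTag–SDG2cd, and both SDG2cd–ZF libraries were above both SunTag–SDG2cd libraries, although the highest SunTag–SDG2cd library (3.37%) and the lowest SDG2cd–ZF library (3.42%) nearly met (exact permutation p = 0.33, the smallest possible). This excess depends on the weight of each region: with the mean of the 3 region means in place of the mean over cytosines it was 0.0669 points, and the SDG2cd–ZF libraries lay between the SunTag–SDG2cd libraries (exact permutation p = 1.00). In region 1 the order was the opposite. There SDG2cd–ZF left 2.09% and 2.73%, against 5.98% and 9.09% with SunTag–SDG2cd. In region 2 SDG2cd–ZF left 2.13% and 2.75%, against 0.825% and 1.58%. In region 3 it left 5.16% and 6.18%, against 1.18% and 2.00%. The libraries of the 2 effectors did not overlap in any of the 3 regions. Relative to *rdr6*, 2.78% of the CG level of region 1 remained with SDG2cd–ZF and 8.70% with SunTag–SDG2cd. In region 3 it was 6.73% with SDG2cd–ZF and 1.88% with SunTag–SDG2cd.

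**Figure D1:**
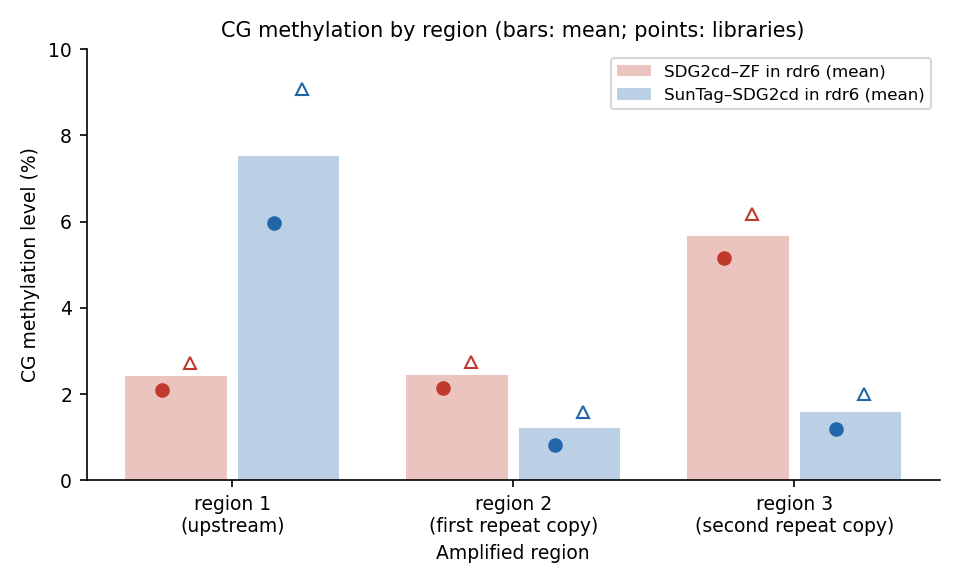
CG methylation level (%) in regions 1, 2 and 3 for SDG2cd–ZF in *rdr6* (red) and SunTag–SDG2cd in *rdr6* (blue); bars are means, filled circles SDG2cd–ZF library 3 and SunTag–SDG2cd replicate 1, open triangles library 4 and replicate 2. The SDG2cd–ZF points lie below the SunTag–SDG2cd points in region 1 (2.09% and 2.73% against 5.98% and 9.09%) and above them in regions 2 and 3.

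The difference in place was measured in each library as the CG level of region 1 minus the mean of regions 2 and 3. It was negative with SDG2cd–ZF, at -1.65 ± 0.126 percentage points, and positive with SunTag–SDG2cd, at 6.14 ± 1.64 points (SD, n = 2 each). The 2 effectors thus differed by -7.79 points in this contrast, several times the SD within either group, with an exact permutation p of 0.33, the smallest possible. Leaving out any 1 of the 4 libraries gave -8.95 to -6.63 points. In *rdr6* itself the contrast was 1.53 and 1.22 points on a level of about 85%, so the regions started nearly level.

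Site by site, SDG2cd–ZF was higher than SunTag–SDG2cd without overlap at 16 of the 74 cytosines (21.6%) and lower at 21 (28.4%). Of the 14 CG cytosines it was higher at 8, lower at 4 and overlapping at 2. The 8 were all 6 CG cytosines of region 3 and the last 2 of region 2, and the 4 were all 3 of region 1 and site 13038364 of region 2. The exact test per cytosine called none of the 74, with an adjusted or an unadjusted p under 0.05, because 2 against 2 libraries cannot go below 0.33. As an alternative, limma on the log2 odds of methylation called 18 of the 74 when the 6 libraries were fitted alone, 8 higher and 10 lower with SDG2cd–ZF. Of these, 10 were CG (8 higher and 2 lower), 7 were CHH (all lower) and 1 was CHG (lower). This fit gave all 74 cytosines the same standard error (0.480), so it pooled the spread over cytosines that share PCR products and reads. Its calls are therefore descriptions over sites, not tests over plants. With all 34 libraries of 9 groups, whose spread is wider, limma called 0 and none had an unadjusted p under 0.05.

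The 3 CG cytosines of region 1 are those that the SunTag effector left most methylated. Site 13038250, at -110 bp from the start of *FWA*, read 3.87% and 4.69% with SDG2cd–ZF, 7.20% and 11.9% with SunTag–SDG2cd, and 82.0% and 81.8% in *rdr6*. Site 13038272, 88 bp upstream and the first base of the region 1 sequence above, read 0.954% and 1.24% with SDG2cd–ZF, 6.65% and 8.76% with SunTag–SDG2cd, and 92.2% and 93.4% in *rdr6*. It showed the lowest ratio of SDG2cd–ZF to SunTag–SDG2cd of the 14 CG cytosines, 0.142. Site 13038269, the second capital of that sequence, read 1.44% and 2.26% with SDG2cd–ZF, 4.09% and 6.64% with SunTag–SDG2cd, and 84.8% and 85.2% in *rdr6*. At each of the 3 both SunTag–SDG2cd libraries were above both SDG2cd–ZF libraries.

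With SDG2cd–ZF the most methylated CG cytosines lay instead in the repeat. Site 13038686, in intron 2 at 326 bp past the start of *FWA*, read 10.6% and 12.4% with SDG2cd–ZF, 2.74% and 3.798% with SunTag–SDG2cd, and 77.1% and 78.9% in *rdr6*. Site 13038596, in exon 2 (5′ UTR), read 10.3% and 12.1% with SDG2cd–ZF, 1.78% and 2.85% with SunTag–SDG2cd, and 92.3% and 93.8% in *rdr6*. Site 13038476, in intron 1, read 7.79% and 9.61% with SDG2cd–ZF, 2.35% and 4.04% with SunTag–SDG2cd, and 91.4% and 91.7% in *rdr6*. SDG2cd–ZF thus kept 14.8%, 12.0% and 9.497% of the *rdr6* level at these cytosines, and SunTag–SDG2cd kept 4.19%, 2.49% and 3.49%. The ratio of SDG2cd–ZF to SunTag–SDG2cd was 3.53 at site 13038686, 4.83 at site 13038596, the highest of the 14, and 2.72 at site 13038476.

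The other 5 cytosines that were higher with SDG2cd–ZF had lower levels. Site 13038582 (exon 2) read 3.63% and 3.97% with SDG2cd–ZF against 0.658% and 1.77% with SunTag–SDG2cd. Site 13038606 (exon 2) read 2.59% and 3.07% against 0.595% and 1.20%. Site 13038575 (exon 2) read 2.13% and 3.14% against 0.580% and 1.29%. Their *rdr6* means were 90.2%, 87.5% and 94.8%. Site 13038468 (intron 1) read 1.81% and 2.35% with SDG2cd–ZF against 0.544% and 1.07% with SunTag–SDG2cd, and site 13038678 (intron 2) read 1.71% and 2.42% against 0.729% and 1.06%. The *rdr6* mean at site 13038678 was 62.4%, the lowest of the 14 CG cytosines.

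The 3 CG cytosines at the start of the transcribed sequence were close to empty with both effectors. Site 13038361, 1 bp past the annotated start, read 0.071% and 0.181% with SDG2cd–ZF and 0.134% and 0.374% with SunTag–SDG2cd, against 75.0% and 75.5% in *rdr6*, and was the only CG cytosine that overlapped the *fwa* floor. Site 13038364 read 0.187% and 0.201% with SDG2cd–ZF, 0.212% and 0.565% with SunTag–SDG2cd, and 90.7% and 90.5% in *rdr6*. Site 13038385 read 0.814% and 1.42% with SDG2cd–ZF, 0.884% and 1.86% with SunTag–SDG2cd, and 88.5% and 87.8% in *rdr6*. Sites 13038361 and 13038385 were those at which the 2 effectors overlapped. Low levels were not particular to these 3 sites. With SunTag–SDG2cd site 13038385 averaged 1.37%, above sites 13038468 (0.807%), 13038575 (0.935%), 13038582 (1.21%), 13038606 (0.899%) and 13038678 (0.896%). Sites 13038476, 13038596 and 13038686 and those of region 1 were higher. With SDG2cd–ZF site 13038385 averaged 1.12%, near site 13038272 of region 1 (1.09%).

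**Figure D2:**
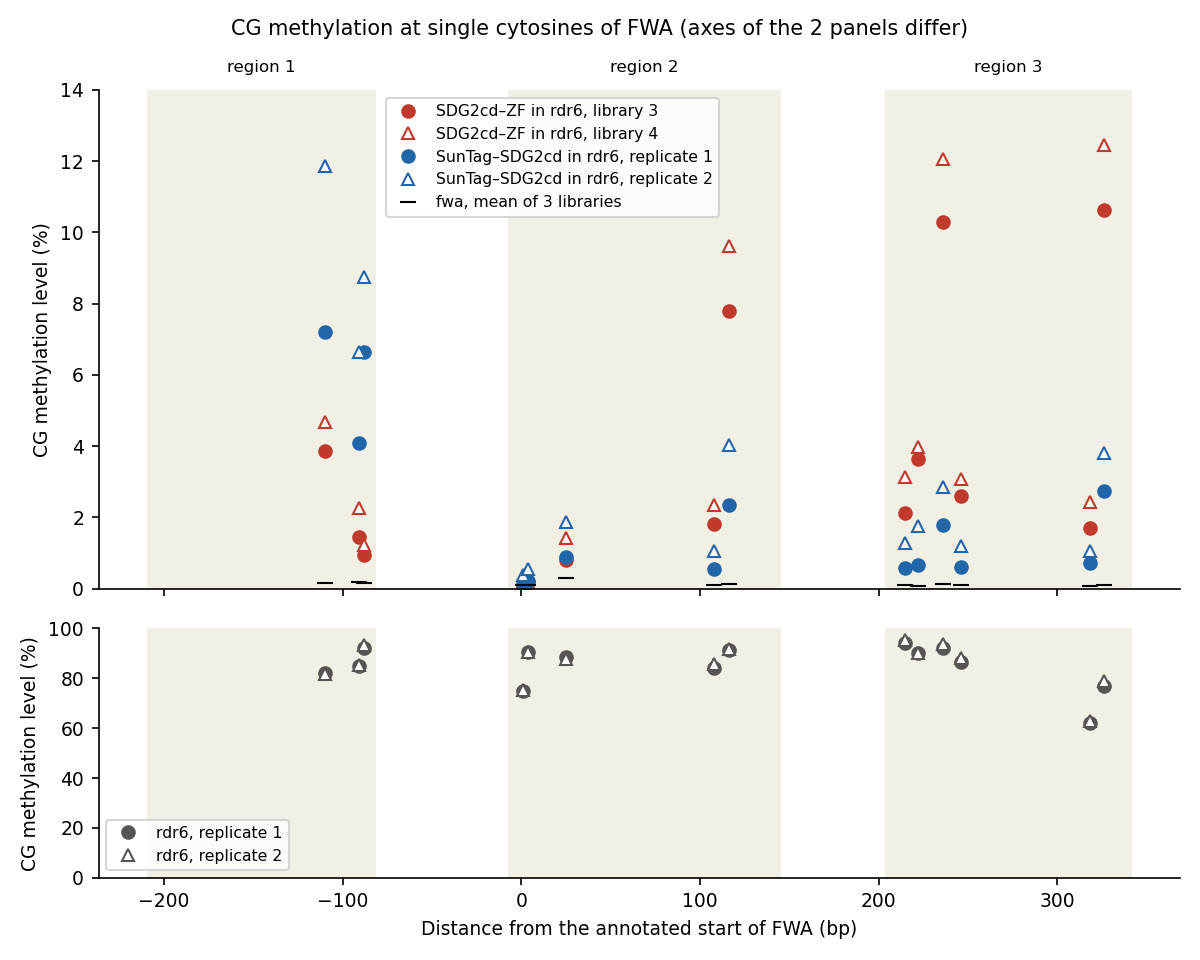
CG methylation level (%) at the 14 CG cytosines by distance from the annotated start of *FWA* (bp), for the 4 effector libraries and the *fwa* mean (upper panel, 0 to 14%) and the 2 *rdr6* libraries (lower panel, 0 to 100%), with the regions shaded. Red points (SDG2cd–ZF) reach 12.4% in region 3 and blue points (SunTag–SDG2cd) reach 11.9% in region 1. The 3 cytosines at the start of the gene lie under 2% with both, as do some points elsewhere.

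The profiles were stable within each effector and differed between them. Library 4 was above library 3 of SDG2cd–ZF at all 14 CG cytosines, and replicate 2 was above replicate 1 of SunTag–SDG2cd at all 14, so the 2 libraries of a group differed in overall level and hardly in shape. Across the 14 cytosines Pearson's r was 0.998 between the SDG2cd–ZF libraries and 0.988 between the SunTag–SDG2cd libraries, but 0.136 between the 2 effector means (Spearman's rho 0.446). Across the 11 CG cytosines of regions 2 and 3 alone, r between the effectors was 0.921 (rho 0.836). Within the repeat the same cytosines were therefore the more methylated ones with both effectors. Cytosines of one region share their PCR product and reads, so these coefficients are descriptions over sites, not over plants.

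At 2 of the 4 pairs of matched cytosines, the repeat copies differed widely with SDG2cd–ZF when taken as a ratio. At the pair 13038385 and 13038596, SDG2cd–ZF left 11.2% in region 3 and 1.12% in region 2 (means of 2 libraries), a ratio of 9.99, while SunTag–SDG2cd left 2.32% and 1.37%, a ratio of 1.69. At the pair 13038364 and 13038575, SDG2cd–ZF left 2.63% in region 3 and 0.194% in region 2, and SunTag–SDG2cd left 0.935% and 0.388%. The *rdr6* levels of these 2 pairs lay close together, at 93.1% in region 3 and 88.2% in region 2 for sites 13038596 and 13038385, and at 94.8% and 90.6% for sites 13038575 and 13038364. Toward the other end of the copies the ratio was smaller. At the pair 13038468 and 13038678, identical over 25 bases, SDG2cd–ZF left 2.06% in region 3 and 2.08% in region 2, and SunTag–SDG2cd 0.896% and 0.807%, although *rdr6* read 62.4% and 85.0%. At the neighbouring pair 13038476 and 13038686, SDG2cd–ZF left 11.5% in region 3 and 8.70% in region 2, and SunTag–SDG2cd 3.27% and 3.20%. In percentage points this pair differed by 2.83 with SDG2cd–ZF, against 2.44 at the pair 13038364 and 13038575. The region 2 level of the latter pair lay near the *fwa* floor, so its ratio rests on a small value.

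**Figure D3:**
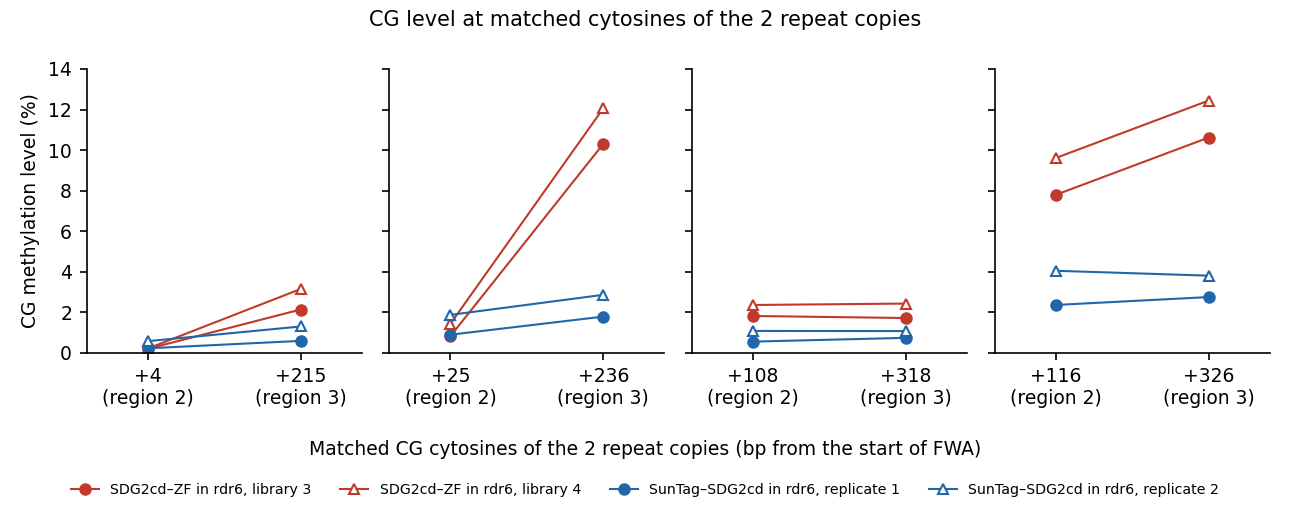
CG methylation level (%) at the 4 pairs of matched CG cytosines in region 2 and region 3, each panel 1 pair named by distance from the start of *FWA* (bp); lines join the values of 1 library, red for SDG2cd–ZF and blue for SunTag–SDG2cd in *rdr6*. The red lines of the second panel run up to 10.3% and 12.1% in region 3, against 0.814% and 1.42% in region 2, and those of the third panel are flat.

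At no CHG cytosine did an effector library exceed 0.431%. Above the *fwa* floor without overlap were 1 of the 3 CHG cytosines with SDG2cd–ZF and 2 with SunTag–SDG2cd. Site 13038491 (intron 1), the most methylated CHG cytosine of *rdr6*, read 0.253% and 0.189% with SDG2cd–ZF, 0.214% and 0.323% with SunTag–SDG2cd, and 29.6% and 33.3% in *rdr6*. Site 13038499 (intron 1) read 0.121% and 0.038% with SDG2cd–ZF, 0.078% and 0.254% with SunTag–SDG2cd, and 4.08% and 4.71% in *rdr6*. Site 13038583 (exon 2) read 0.063% and 0.151% with SDG2cd–ZF, 0.285% and 0.431% with SunTag–SDG2cd, and 7.21% and 6.91% in *rdr6*, and it was the only CHG cytosine at which the 2 effectors did not overlap. Its means were 0.107% with SDG2cd–ZF and 0.358% with SunTag–SDG2cd, against 0.070% in *fwa*. It adjoins CG site 13038582, where the order of the effectors was the reverse.

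What remained of CHH methylation was gathered at the end of region 1 with both effectors. The 6 CHH cytosines from 13038238 to 13038253, chosen after their values were seen as those above 1% in both effector means, averaged 2.59% and 3.57% with SDG2cd–ZF, 2.70% and 4.09% with SunTag–SDG2cd, and 8.10% and 6.17% in *rdr6*, against 0.177% to 0.198% in *fwa*. They kept 43.2% of the *rdr6* level with SDG2cd–ZF and 47.6% with SunTag–SDG2cd. The other 51 CHH cytosines averaged 0.157% and 0.178% with SDG2cd–ZF, 0.144% and 0.210% with SunTag–SDG2cd, and 4.70% and 4.16% in *rdr6*. In *fwa* they averaged 0.107% to 0.130%. The effector levels are 3.78% and 3.99% of the *rdr6* level, and the *fwa* floor, not subtracted here, makes up a large part of them. Of the summed CHH level, these 6 cytosines held 68.4% with SDG2cd–ZF, 69.3% with SunTag–SDG2cd and 15.9% in *rdr6*. Unlike CG methylation, the CHH methylation of region 1 overlapped between the effectors, at 0.944% and 1.33% with SDG2cd–ZF and 0.949% and 1.41% with SunTag–SDG2cd.

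The most methylated CHH cytosines of *rdr6* were different ones. Site 13038428 (intron 1) read 0.192% and 0.259% with SDG2cd–ZF, 0.414% and 0.63% with SunTag–SDG2cd, and 19.4% and 17.7% in *rdr6*. Sites 13038639 (intron 2) and 13038370 (exon 1) averaged 18.2% and 15.1% in *rdr6*, and neither exceeded 0.599% in an effector library. With the effectors the leading cytosines were 13038253, 13038246 and 13038240, the same 3 for both. Site 13038253 read 5.08% and 6.39% with SDG2cd–ZF, 3.98% and 6.18% with SunTag–SDG2cd, and 10.5% and 8.59% in *rdr6*. Site 13038246 read 4.08% and 6.12% with SDG2cd–ZF, 4.14% and 6.38% with SunTag–SDG2cd, and 14.2% and 11.4% in *rdr6*. Site 13038240 read 2.34% and 3.23% with SDG2cd–ZF, 3.07% and 4.31% with SunTag–SDG2cd, and 7.83% and 5.78% in *rdr6*. These cytosines lie in the printed end of region 1, beside the 3 CG cytosines at which the effectors differed.

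**Figure D4:**
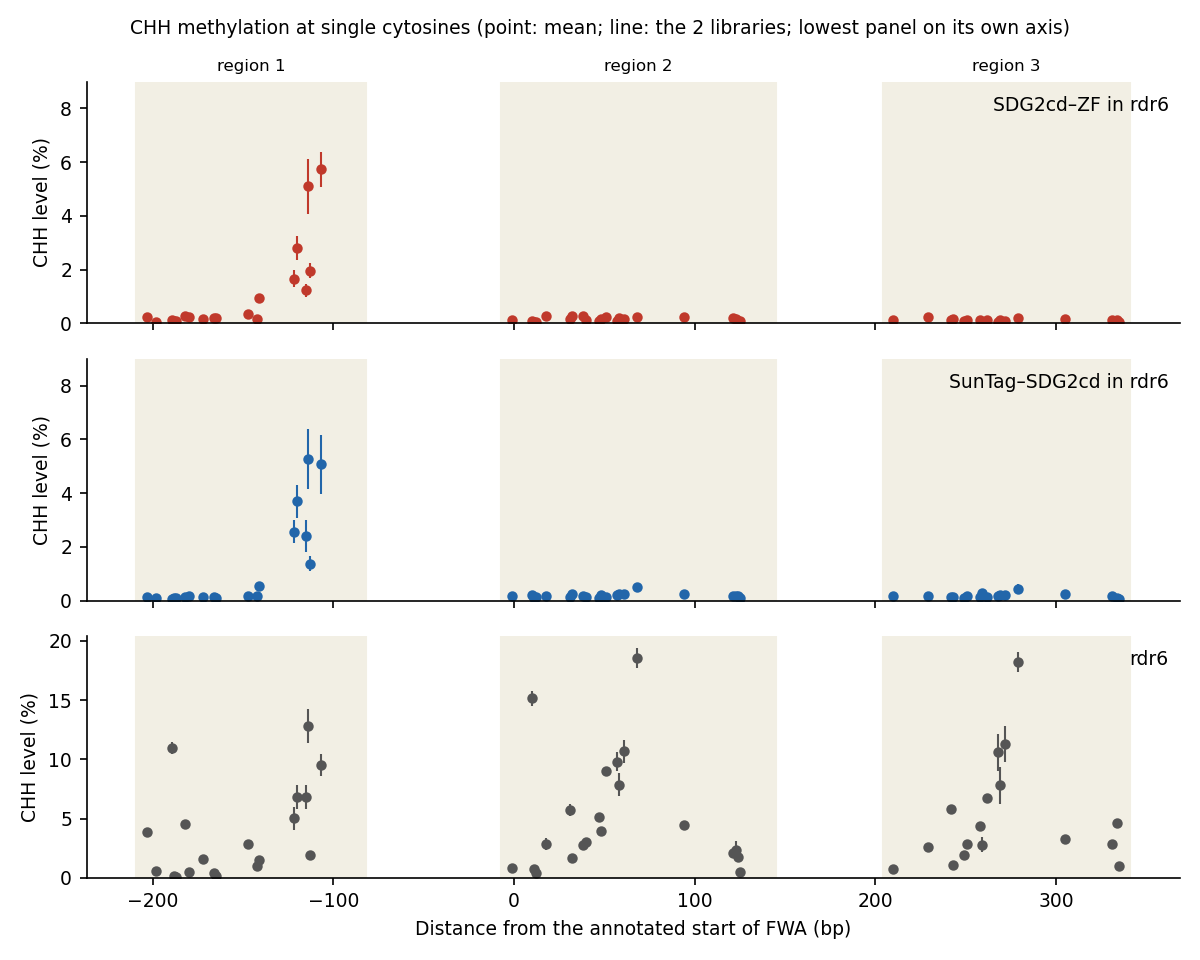
CHH methylation level (%) at the 57 CHH cytosines by distance from the start of *FWA* (bp) for SDG2cd–ZF in *rdr6* (top), SunTag–SDG2cd in *rdr6* (middle) and *rdr6* (bottom, on its own axis); points are means and vertical lines span the 2 libraries. With both effectors the points above 1% are the 6 CHH cytosines at the end of region 1, which reach 5.73% and 5.26%, while *rdr6* has its highest points in regions 2 and 3.

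The same effectors were also measured in plants with intact *RDR6*. SDG2cd–ZF in *rdr6* had 3.42% and 4.22% CG methylation, against 1.19% to 33.5% with a median of 10.4% in 8 libraries of SDG2cd–ZF in Col-0. The *rdr6* libraries lay inside the range of the Col-0 libraries, and the difference of means, -9.84 percentage points, was within the spread (exact permutation p = 0.289, adjusted p = 0.565). The differences were -4.98 points in CHG (p = 0.156) and -4.99 points in CHH (p = 0.156, exact permutation tests, adjusted p = 0.565 for both). When each background was set against its own untransformed plants, the change with SDG2cd–ZF in *rdr6* minus that in Col-0 was -8.59 points in CG (p = 0.40), -6.14 points in CHG (p = 0.0889) and -4.54 points in CHH (p = 0.244), and none of these exact permutation tests passed (adjusted p = 0.565 each). In CHH the change in Col-0 itself averaged 0.302 ± 4.47 points (SD, n = 8), so the mean CHH level did not fall there. In *rdr6* the CHH change was -4.24 points. The untransformed *rdr6* and Col-0 plants had 85.4% ± 0.530 (SD, n = 2) and 86.7% ± 2.07 (SD, n = 3) CG methylation, a difference of -1.25 points that was within the spread (exact permutation p = 0.40).

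For SunTag–SDG2cd the wild-type libraries read 0.187% and 14.4% in CG, so the *rdr6* libraries (2.08% and 3.37%) lay between them. The difference of means was -4.58 percentage points (exact permutation p = 1.00). Without the wild-type library that goes against its label it was -11.7 points, with 1 wild-type library and no test that could pass, and without the other it was 2.54 points. Its direction therefore rests on 1 library.

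The balance of region 1 against regions 2 and 3 also differed from that in plants with intact *RDR6*, as a description chosen after the values were seen and not tested. The ratio of region 1 to the mean of regions 2 and 3 in CG was 0.572 and 0.611 with SDG2cd–ZF in *rdr6*. With SDG2cd–ZF in Col-0 it ranged from 0.894 to 1.96 with a median of 1.5, and 7 of 8 libraries were above 1. It was 5.96 and 5.08 with SunTag–SDG2cd in *rdr6*, against 1.99 in the wild-type library that fits its label and 0.912 in the other, whose levels were at the floor. In the library labelled *fwa rdr6*, whose label is in doubt, it was 2.64, and in *rdr6* 1.018 and 1.014. The Col-0 library of SDG2cd–ZF with the CG level nearest to those in *rdr6* (4.86%) had 7.95% in region 1, 4.39% in region 2 and 3.71% in region 3, and its CHG level was 1.91%. With SunTag–SDG2cd both *rdr6* libraries had region 1 highest and region 2 lowest. So did the wild-type library that fits its label, at 23.6%, 11.4% and 12.3% in regions 1, 2 and 3.

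**Figure D5:**
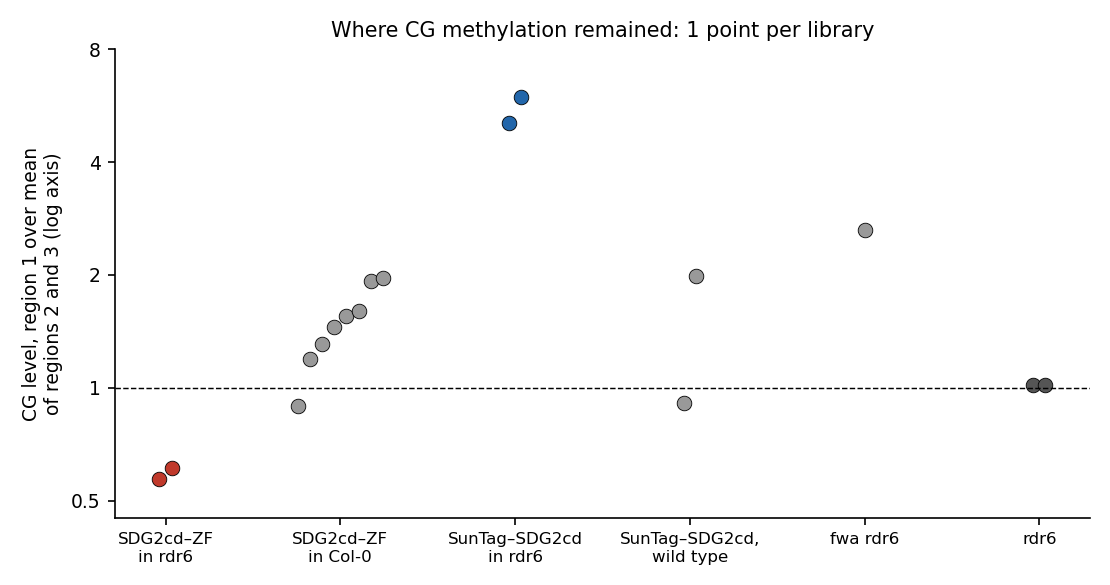
Ratio of the CG level of region 1 to the mean of regions 2 and 3 (log axis, dashed line at 1), 1 point per library, for SDG2cd–ZF in *rdr6* and in Col-0, SunTag–SDG2cd in *rdr6* and in wild type, the library labelled *fwa rdr6* (label in doubt) and *rdr6*. The SDG2cd–ZF points in *rdr6* (0.572 and 0.611) lie under all 8 points in Col-0 (0.894 to 1.96), and the SunTag–SDG2cd points in *rdr6* (5.96 and 5.08) lie above all others plotted here.

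The CHH cytosines at the end of region 1 carried methylation in plants with intact *RDR6* as well. The 6 cytosines averaged 3.20% to 36.6% over the 8 libraries of SDG2cd–ZF in Col-0, with a median of 14.2%, and 9.17% in the wild-type SunTag–SDG2cd library that fits its label. The other 51 CHH cytosines ranged from 0.183% to 10.5% in those 8 libraries, with a median of 3.26%. Untransformed Col-0 was not averaged over these sets of cytosines, so no loss or gain in Col-0 can be read from them.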

How the data were processed

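BS-PCR-seq was analysed for 6 libraries in *rdr6* and for those set beside them (8 SDG2cd–ZF in Col-0, 2 SunTag–SDG2cd in wild type, 3 Col-0, 3 *fwa* and 1 *fwa rdr6*), grouped by their labels. Reads were mapped by the authors to TAIR10 with BSMAP 2.90, per the labels, and the study's methods, which are worded for whole-genome libraries, removed reads with runs of methylated CHH cytosines. That filter would lower CHH levels if it was applied here. The deposited tables give counts of C and of C + T reads per cytosine, and the deposited fraction is the ratio of these counts, from which it differed by at most 0.0005. Reads of a cytosine are not separate molecules.

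The level was C / (C + T) at cytosines with at least 10 reads. 19 further cytosines of the regions never passed. All 150 cytosines listed on chromosome 4 matched the TAIR10.1 sequence, and none of the 74 used lies in a primer. The reverse primer of region 3 has its next best match, with 2 mismatches, in the other repeat copy. Differences of library means were tested for 8 comparisons in 3 contexts with a two-sided exact permutation test, adjusted by Benjamini-Hochberg over 24 tests. Per-cytosine tests were adjusted over 74 cytosines. Alternatives were other read minimums, pooled counts, medians, single regions, the fraction column, a background subtraction, each library left out, a replicate block, and limma 3.58.1 in R 4.3.3 on log2 odds with 0.5 added. Tests were checked on simulated data. Python 3.11.15, pandas 2.3.3 and scipy 1.17.1 were used. Every CG and CHG cytosine is named, and of CHH the 3 highest in each group. The regions, sites, comparisons and lists were chosen with earlier results of these data known. The whole-genome libraries and 2 SunTag–SDG2 libraries whose labels give no background entered no comparison.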

Additional observations from a re-analysis of the deposited data

Results flagged for a closer look

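The *fwa rdr6* library, which entered no main comparison and served only in the background subtraction, read 5.62% in CG, 2.06% in CHG and 1.51% in CHH. The 3 *fwa* libraries ranged from 0.0806% to 0.228% in CG, from 0.0803% to 0.107% in CHG and from 0.114% to 0.136% in CHH. Region 1 of *fwa rdr6* had 10.9% CG methylation, region 2 had 3.87% and region 3 had 4.42%, and its 6 CHH cytosines at the end of region 1 averaged 5.05%. At *MSH3* it read 80.9%, unlike the *fwa* libraries (0.061% to 0.355%), so its label is in doubt.

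The amplicon in *MSH3* was outside the comparisons at *FWA*, and the study's methods do not describe it. Its 7 CG cytosines (chr4:13044647-13044770) averaged 85.5% ± 0.471 with SDG2cd–ZF in *rdr6*, 80.5% ± 0.291 with SunTag–SDG2cd in *rdr6* and 80.9% ± 0.997 in *rdr6* (SD, n = 2 each). Both SDG2cd–ZF libraries (85.1% and 85.8%) were above both *rdr6* libraries (81.6% and 80.2%), by 4.58 percentage points on average (exact permutation p = 0.33, the smallest possible). The 8 libraries of SDG2cd–ZF in Col-0 ranged from 76.4% to 88.8% there. At *FWA*, no library of SDG2cd–ZF in Col-0 stood out from its group in the 3 contexts checked. This check was not made at *MSH3*.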

How the results depend on the processing

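The falls against *rdr6* kept their direction under the alternatives run, as did the contrast of region 1 with regions 2 and 3 (-8.95 to -6.63 percentage points with 1 library left out). Subtracting the *fwa rdr6* level cancels in a difference, and minimums of 100 and 1000 reads keep the same 74 cytosines, so these leave every difference as it was by construction. The CG difference between SDG2cd–ZF and SunTag–SDG2cd was -5.12 points in region 1 alone, 4.09 in region 3 alone, 0.0669 as the mean of the 3 region means (exact permutation p = 1.00) and 0.453 to 1.74 with 1 library left out. The CHH difference ranged from -0.144 to 0.0604 with 1 library left out, so it has no settled direction. At site 13038385 the difference was -0.745 to 0.235 with 1 library left out (0.0502 without SDG2cd–ZF library 3). Cytosines without overlap numbered 37, and 53 to 57 with 1 library left out, where 1 library meets 2. Cytosines called numbered 18 by limma on 6 libraries, with the spread pooled over cytosines, and 0 on 34 libraries. For SunTag–SDG2cd in *rdr6* against wild type, leaving out 1 library gave -11.7 to 2.54 in CG, -3.45 to 0.201 in CHG and -2.49 to 0.40 in CHH, and, net of untransformed plants, -10.4 to 3.78 in CG and -2.05 to 0.848 in CHH. With a minimum of 1 read, which admits 93 cytosines, the net differences were 2.11 in CHG and 1.00 in CHH. For *rdr6* against Col-0 the difference turned to 0.0693 in CG in region 2, to -3.73 (minimum of 1 read), -0.642 (median) and -0.642 (region 3) in CHG, and to 0.440 in CHH with Col-0 of the earlier label set, or -0.892 to 0.213 with 1 library left out. Net of the *fwa* level, an alternative added after the data were seen, SDG2cd–ZF kept 0.317% of CHG and 7.63% of CHH methylation, and SunTag–SDG2cd 1.22% and 8.54%. The causes of these turns were not tested.

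SunTag–SDG2cd and *rdr6* share replicate numbers. The replicate block gave -82.7 in CG, -14.03 in CHG and -4.20 in CHH (exact sign-flip p = 0.50, the smallest possible), and same-numbered libraries did not deviate together (r = -0.0130 over 74 cytosines). Region 1 has no CHG cytosine, so that alternative gave no CHG value.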

Other observations

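For 2 libraries labelled SunTag–SDG2 the labels give no background, and they entered no comparison. They read 86.8% and 82.4% in CG, 8.46% and 14.2% in CHG and 3.43% and 5.06% in CHH. The lowest CG cytosine was at 67.8% in the library with 86.8% and at 37.1% in the other.

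With 2 libraries a group, the exact test does not go below 0.33, and differences between the effectors are given by their size against the spread. The labels do not tie libraries to transformants, and binding sites of the zinc finger and of the guides were not analysed here. The library numbers of SDG2cd–ZF and SunTag–SDG2cd come from different label styles. Labels of the SDG2cd–ZF libraries begin with BS-PCRseq, and those of SunTag–SDG2cd and *rdr6* with BS-PCR. What the styles mark is not stated, and a difference between them cannot be told apart from one between the effectors. No level of SDG2cd protein, H3K4me3 or *FWA* transcript was analysed here. Leaf tissue mixes cell types, and the levels are averages over its cells.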
